A study of Mus musculus with 8 samples.

Results

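The core of the Notch pathway was examined in whole mouse lung: the receptors Notch1, Notch2, Notch3 and Notch4, the ligands Jag1, Jag2 and Dll4, and the effectors Hes1, Hey1 and Hey2. These 10 genes were taken by name from the probe sets whose annotation gives exactly 1 gene symbol, and all 10 were found, among 19937 genes measured in all. Where a gene has several such probe sets the rule takes the one with the highest mean over the 8 arrays, but each of the 10 had only 1. The lungs came from untreated mice at postnatal day 21. In 4 mice beta-catenin, the transcriptional effector of canonical Wnt signalling, was in a stabilized form, and in the other 4 it was knocked out, and the labels record every mouse as male. The labels name no Cre driver and no altered exon, so which lung cells carry each allele is not known from them. Unmodified lungs were not analysed here, so a difference between the groups does not say which of them departed from normal.

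In Notch signalling a ligand on one cell binds a receptor on its neighbour. The receptor is then cut first by an ADAM protease and afterwards by gamma-secretase, and the freed intracellular part enters the nucleus, where it turns the DNA-binding protein RBPJ from a repressor into an activator. Its best known targets are the Hes and Hey genes, which encode repressors of the basic helix-loop-helix class. In the lung the pathway sets the balance between secretory and ciliated cells of the airway, takes part in arterial and capillary endothelial identity, and acts in pericytes and in lymphocytes.

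Correlations of the arrays over all genes were 0.993 to 0.996 within a group and 0.987 to 0.993 between groups. Array medians lay from 5.97 to 6.03 on the log2 scale. The normalization equalises array distributions, so the medians do not check quality. Sftpc and Ager, which mark alveolar type 2 and type 1 cells, were bright in both groups, with mean log2 values of 13.21 and 12.09 in stabilized and 13.18 and 11.92 in knockout lungs. Sftpc was 1 of only 3 of 12 alveolar type 2 markers that did not pass the test between the groups described below, and the other 9 rose. The transcript of Ctnnb1, which encodes beta-catenin, lay between 10.99 and 11.14 in stabilized and between 10.92 and 11.03 in knockout lungs and did not pass (difference 0.09 ± 0.06, SE, limma adjusted p = 0.42). Since the altered exons are not given, that level does not check the labels. Among 12 Wnt feedback targets and related genes, 10 did not pass, among them Axin2 (0.06 ± 0.07, SE, limma adjusted p = 0.67), a widely used reporter of Wnt signalling that was chosen after its values were seen. Tnfrsf19 rose by 0.35 ± 0.08 (SE), while Lef1, a TCF/LEF factor that T cells also express, fell by 0.76 ± 0.10 (SE, limma adjusted p = 0.00066). Tnfrsf19 lost its call without stabilized replicate 1 or knockout replicate 3 (highest limma adjusted p = 0.061) and in the fit on all probe sets, and Lef1 kept its call in these fits. The median difference of that list was -0.02, and 0.02 with arrays centred on their medians. On 4 arrays the sex-linked genes went against the recorded sex. Xist, which females express from the inactive X chromosome, lay between 10.36 and 10.59 in stabilized replicates 1 and 4 and knockout replicates 1 and 3, and between 4.18 and 4.62 on the others. Each group held 2 arrays of either kind. The called genes among the 10, some marker lists and the counts of calls are given below with and without the 4 Xist-high arrays.

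Of the 10 genes, Dll4 and Hey1 were higher and Notch2 was lower in stabilized than in knockout lungs, and 7 did not pass the test (limma, adjusted by Benjamini-Hochberg over all genes, threshold 0.05). Hey1 was 1.47-fold and Dll4 1.33-fold higher, and Notch2 was 1.30-fold lower. Over all 19937 genes 9.62% passed the same test, 4.65% as higher and 4.96% as lower in stabilized lungs. The groups did not overlap for these 3 members, as for 16.9% of all genes. The median difference of the members was 0.04 on the log2 scale against -0.01 over all genes, and the median size of the difference was 0.12 against 0.10.

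**Figure D1:**
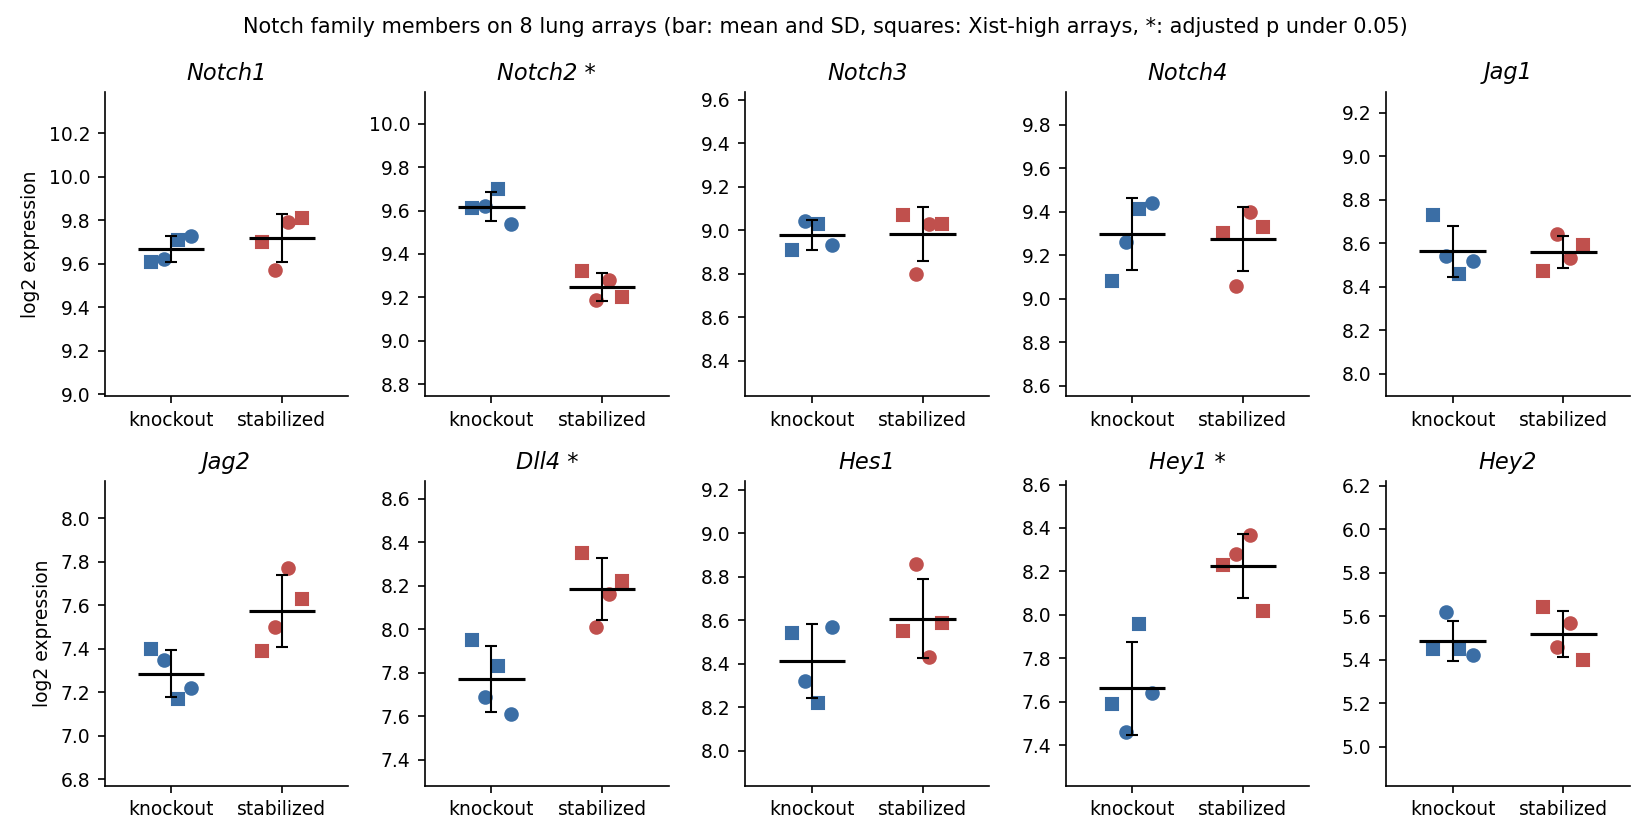
Log2 expression of each gene (vertical axis, each panel spanning the same 1.4 log2 units around its own level) in the 4 knockout (blue) and 4 stabilized (red) lungs. Bars give the mean and SD, squares are the Xist-high arrays and an asterisk marks an adjusted p under 0.05. Only in the panels of Notch2, Dll4 and Hey1 do all points of one group lie on one side of the other.

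The upstream sequences of the called genes Notch2 and Dll4 and of Hey2 are shown. They are where RBPJ or the TCF/LEF partners of beta-catenin could bind near the transcription start. No sequence was matched for Hey1, the other called gene. RefSeq promoter windows (GRCm38.p6, 250 bases before to 50 after the start) were matched for 8 of the 10 genes, the others being Hes1 and Hey1. The letters TGGGAA, the core of the RBPJ motif, were searched on both strands, as were CTTTGAT and CTTTGAA, cores of the TCF/LEF motif. TGGGAA was found in 1 of the 8 windows, that of Hey2, while 25.6% of all 32851 windows hold it. Neither TCF/LEF core was found in any of the 8 windows, and 3.73% and 5.14% of all windows hold them. The sequences below run 5′ to 3′ on the strand of the gene and end 10 bases after the start. They cover chr3:98013288-98013547 on the plus strand for Notch2, chr2:119325534-119325793 on the plus strand for Dll4 and chr10:30842774-30843033 on the minus strand for Hey2. In Hey2 capitals mark TGGGAA or its complement TTCCCA. In Notch2 and Dll4, where that core is not present, they mark the GC box GGGCGG or its complement CCGCCC, which 35.7% of all windows hold.
Notch2: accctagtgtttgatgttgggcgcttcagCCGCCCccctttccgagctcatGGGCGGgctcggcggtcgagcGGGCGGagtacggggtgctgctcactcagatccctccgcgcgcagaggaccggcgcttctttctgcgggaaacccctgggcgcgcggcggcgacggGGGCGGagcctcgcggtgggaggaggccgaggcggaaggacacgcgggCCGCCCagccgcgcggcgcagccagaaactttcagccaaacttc
Dll4: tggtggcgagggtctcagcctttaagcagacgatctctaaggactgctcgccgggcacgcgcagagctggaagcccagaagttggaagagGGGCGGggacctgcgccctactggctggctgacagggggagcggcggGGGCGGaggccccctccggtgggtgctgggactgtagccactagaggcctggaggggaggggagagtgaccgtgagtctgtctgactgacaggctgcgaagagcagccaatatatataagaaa
Hey2: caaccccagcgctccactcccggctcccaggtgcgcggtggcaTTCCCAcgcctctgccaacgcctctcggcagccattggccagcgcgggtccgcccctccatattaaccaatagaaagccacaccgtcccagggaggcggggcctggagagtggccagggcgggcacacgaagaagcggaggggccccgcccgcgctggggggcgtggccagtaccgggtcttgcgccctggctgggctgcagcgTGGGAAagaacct
The RBPJ cores of Hey2 begin 207 and 3 bases before the start, the first on the opposite strand and the second reading across the start site. The 3 upstream parts are rich in G and C, at 72.0% in Notch2, 65.6% in Dll4 and 71.6% in Hey2, against a median of 52.4% over all windows. Notch2 lies on chromosome 3 (98013538 to 98150367) and Dll4 on chromosome 2 (119325784 to 119335666), while Hey1 lies on chromosome 3 (8663359 to 8667038) and Hey2 on chromosome 10 (30832359 to 30842783).

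Among the receptors, Notch2 fell and the other three did not pass the test. Notch2 is one of the receptors of the airway epithelium and the receptor on which marginal zone B cells depend. Stabilized replicates 1 to 4 had log2 values of 9.32, 9.19, 9.28 and 9.20, whereas knockout replicates 1 to 4 had 9.61, 9.62, 9.70 and 9.54. Every stabilized lung lay below every knockout lung, and the spread within a group was small beside the gap between them. The difference was -0.37 ± 0.06 (SE, n = 4 per group, limma adjusted p = 0.0027), and it ranked 514 of all genes by p. It was -0.35 without the Xist-high arrays and -0.40 in those arrays alone, where 2 lungs per group remained and the adjusted p was 0.19 and 0.077. In whole lung, fewer cells of a type and less RNA per cell cannot be told apart.

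Markers of several cell types were lower in the lungs where Notch2 was lower. Lists of macrophages, fibroblasts and other cells were in part higher there and are given further below. Among B and plasma cell markers 10 of 11 fell, and their mean log2 level was 5.56 to 5.64 in stabilized and 6.32 to 6.63 in knockout lungs. Among them, Cd79a and Cd79b of the B cell receptor fell by 1.86 ± 0.12 and 1.35 ± 0.09, and the complement receptor gene Cr2 fell by 0.97 ± 0.07 (SE, n = 4 per group). No list particular to marginal zone B cells was examined. Of 12 airway secretory (club) cell markers 12 fell, with mean levels of 8.06 to 8.52 against 9.43 to 9.92, and the secretoglobin Scgb3a2 fell by 1.70 ± 0.09 (SE). The club differences ran from -0.27 in Cbr2 to -3.4 in Reg3g, the lowest over all genes. All these marker lists were chosen with earlier results of these data known, so their counts and means are description only. Over all genes 4.96% fell. Of 12 ciliated cell markers 11 fell, with mean levels of 5.61 to 5.76 against 6.46 to 6.61, and the axonemal dynein Dnah5 fell by 1.35 ± 0.08 (SE). Of 11 T and NK cell markers 10 fell, with mean levels of 5.96 to 6.33 against 6.91 to 7.67, and the chemokine Ccl5 fell by 1.95 ± 0.16 (SE). Of 12 cardiac and skeletal muscle markers 4 fell, with mean levels of 7.20 to 7.30 against 7.42 to 7.86. All 4 were cardiac genes. The skeletal muscle genes of the list, with differences from -0.12 to -0.05, did not pass, nor did the other cardiac genes. Without the Xist-high arrays the median difference was -0.92 for the T and NK list and -0.18 for the muscle list. In those arrays alone it was -1.6 and -0.5, with 2 lungs per group. The part of these cells in the lower Notch2 was not tested.

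Notch1, the receptor of T cell commitment and of many endothelial cells, was at 9.70, 9.57, 9.79 and 9.81 in stabilized and 9.61, 9.62, 9.71 and 9.73 in knockout lungs. The groups overlapped, and the difference was 0.05 with a 95% interval from -0.10 to 0.20 (limma adjusted p = 0.72). Notch3, the receptor of smooth muscle cells and pericytes, was at 9.07, 8.80, 9.03 and 9.03 against 8.91, 9.04, 9.03 and 8.93. Its difference was 0.01 with an interval from -0.15 to 0.16 (limma adjusted p = 0.98). The pericyte gene Rgs5 rose by 1.65 ± 0.10 (SE) in the same lungs, the only 1 of 16 smooth muscle and pericyte markers to pass. Notch4, which is largely endothelial, was at 9.30, 9.06, 9.40 and 9.33 against 9.08, 9.26, 9.41 and 9.44. Its difference was -0.02 with an interval from -0.23 to 0.18 (limma adjusted p = 0.91), the widest interval of the receptors. By the probe sets used, the intervals of Notch1, Notch3 and Notch4 all leave out a fall as large as that of Notch2. For Notch4 this rests on 1 probe set. Others that carry 2 symbols, Notch4 among them, are outside the rule. They differed by -0.11 ± 0.19, -0.39 ± 0.31, -0.32 ± 0.12 and -0.30 ± 0.09 (SE), and none passed (limma adjusted p over all probe sets from 0.10 to 0.80). Whether Notch2 differed from the other receptors in its change was not tested.

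Among the ligands, Dll4 rose. Dll4 is the ligand of arterial and sprouting endothelium and is itself induced by Notch signalling there. Its log2 values were 8.35, 8.01, 8.16 and 8.22 in the stabilized group (replicates 1 to 4) against 7.95, 7.69, 7.83 and 7.61 in the knockout group. The groups did not overlap, but the lowest stabilized lung, replicate 2, lay only just above the highest knockout lung, replicate 1. In each group the 2 Xist-high arrays lay above the 2 others. The difference was 0.41 ± 0.09 (SE, n = 4 per group, limma adjusted p = 0.013). It was 0.43 without the Xist-high arrays and 0.39 in those arrays alone, with 2 lungs per group and adjusted p = 0.11 and 0.089. The call was lost when all probe sets, named or not, entered the fit (limma adjusted p = 0.051).

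Jag2 and Jag1 did not pass. Jag2, a ligand that airway basal cells express, was at 7.39, 7.50, 7.77 and 7.63 in stabilized and 7.40, 7.35, 7.17 and 7.22 in knockout lungs. Only stabilized replicate 1 lay within the range of the knockout lungs, and the others lay above it. The difference was 0.28 ± 0.09 (SE, 95% interval 0.09 to 0.48, limma adjusted p = 0.064), and it passed when stabilized replicate 1 was left out (0.34, adjusted p = 0.042), when arrays were centred on their medians (0.32, adjusted p = 0.036) or with a trended and robust prior (adjusted p = 0.045). Beside Jag2, the 8 markers of basal cells held 1 gene that rose (Snai2, a transcription factor), 1 that fell (Aqp3, a water channel) and 6 that did not pass. Aqp3 lost its call without stabilized replicate 1 or 2 or knockout replicate 1 or 3 (highest limma adjusted p = 0.097). Jag1, a ligand of smooth muscle, endothelium and airway, was at 8.47, 8.64, 8.53 and 8.59 against 8.73, 8.54, 8.46 and 8.52. Its groups had the same mean of 8.56, with a 95% interval of the difference from -0.16 to 0.16 (limma adjusted p = 1).

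Among the effectors, Hey1 showed the largest difference of the 10 genes. Hey1 is a Notch target of arterial endothelium and other tissues and also responds to BMP signals. Its log2 values were 8.23, 8.28, 8.37 and 8.02 in the stabilized group (replicates 1 to 4) against 7.59, 7.46, 7.96 and 7.64 in the knockout group. The groups did not overlap, although knockout replicate 3 came close to stabilized replicate 4. The difference was 0.56 ± 0.11 (SE, n = 4 per group, limma adjusted p = 0.0052). Both of these neighbouring arrays were Xist-high. Without the Xist-high arrays the difference was 0.77 (limma adjusted p = 0.012) and in those arrays alone it was 0.35 (limma adjusted p = 0.28), with 2 lungs per group in each case. The test of the difference between these values gave -0.42 ± 0.19 (SE, limma, unadjusted p = 0.049, adjusted p = 1), and no gene passed that test after adjustment.

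Hes1 and Hey2 did not pass. Hes1, the most widely used reporter of Notch activity, was at 8.55, 8.86, 8.43 and 8.59 in stabilized and 8.54, 8.32, 8.22 and 8.57 in knockout lungs. The ranges overlapped, and the difference was 0.19 with a 95% interval from -0.03 to 0.42 (limma adjusted p = 0.28), which takes in no change as well as a rise as large as that of Dll4. Hey2, the partner of Hey1 in arterial and cardiac development and the gene whose window held RBPJ cores, was dim on this array. It was at 5.64, 5.46, 5.57 and 5.40 in stabilized and 5.45, 5.62, 5.45 and 5.42 in knockout lungs. Its difference was 0.03 with an interval from -0.13 to 0.19 (limma adjusted p = 0.83), and background in so dim a probe set can compress a change.

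Marker lists of several cell types, arterial endothelium among them, were in part higher in the lungs where Dll4 and Hey1 were higher. Of 12 arterial markers 3 rose, 0 fell and 9 did not pass, with mean log2 levels of 8.19 to 8.25 in stabilized and 7.94 to 8.09 in knockout lungs. The median difference of the arterial list was 0.17. It was 0.05 without the Xist-high arrays and 0.22 in those arrays alone, with 2 lungs per group. The gap junction gene Gja5 rose by 0.88 ± 0.09, the lymphangiogenic growth factor gene Vegfc by 0.63 ± 0.09 and Gja4, another gap junction gene, by 0.31 ± 0.09 (SE, n = 4 per group). With single arrays omitted, Gja4 passed only without stabilized replicate 2 or knockout replicate 1 (highest limma adjusted p = 0.12 over these 8 fits). The arterial genes Efnb2 and Sox17, chosen after their values were seen, differed by 0.03 and 0.05 and did not pass. Of 16 general endothelial markers 14 did not pass, while Ecscr and Esam were higher by 0.39 ± 0.07 and 0.24 ± 0.07 (SE). The mean levels of that list were 10.02 to 10.05 against 9.90 to 10.01. With single arrays omitted, Esam passed only without knockout replicate 4 (highest limma adjusted p = 0.11). Neither Gja4 nor Esam passed with a replicate block, after repeated quantile normalization or in the fit on all probe sets. Of 10 capillary markers 0 passed the limma test after adjustment, 5 at an unadjusted p under 0.05, and their mean levels were 8.81 to 8.91 against 8.76 to 8.81. Of 11 venous and lymphatic markers 1 rose, 2 fell and 8 did not pass, with mean levels of 7.56 to 7.71 against 7.63 to 7.71. The lymphatic receptor gene Flt4 rose by 0.33 ± 0.07, whereas the noradrenaline transporter gene Slc6a2 fell by 0.84 ± 0.11 and Lyve1, a lymphatic marker, fell by 0.32 ± 0.09 (SE). With single arrays omitted, Lyve1 passed only without stabilized replicate 3 or knockout replicate 1 (highest limma adjusted p = 0.10).

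The higher level was not limited to arterial genes. Of 12 alveolar type 2 markers 9 rose, with mean levels of 11.24 to 11.40 in stabilized and 10.98 to 11.07 in knockout lungs and a median difference of 0.27, against 0.17 for the arterial list. Among them Egfl6 rose by 0.67 ± 0.09, the lamellar body gene Lamp3 by 0.55 ± 0.07 and the surfactant protein gene Sftpd by 0.46 ± 0.07 (SE). Of these markers 4 to 9 passed with 1 array left out, 5 or fewer of them unless the array was stabilized replicate 3 or 4, and 4 passed in the fit on all probe sets. Their median difference was 0.31 without the Xist-high arrays and 0.24 in those arrays alone, with at most 3 passing where 2 lungs per group remained. Of 11 macrophage markers 4 rose, with mean levels of 8.0 to 8.16 against 7.77 to 7.94, and the complement gene C1qa rose by 0.59 ± 0.08 (SE). The median difference of the macrophage list was 0.26 without the Xist-high arrays and 0.11 in those arrays alone, with 2 lungs per group. Of 8 mesothelial markers 3 rose, with mean levels of 8.10 to 8.15 against 7.84 to 7.88, and the uroplakin gene Upk1b rose by 0.98 ± 0.07 (SE). Of 12 fibroblast markers 2 rose, Tcf21 by 0.64 ± 0.11 and Pdgfra by 0.33 ± 0.06 (SE), with mean levels of 9.42 to 9.58 against 9.26 to 9.37. Without the Xist-high arrays 0 fibroblast markers passed, and in those arrays alone 1 did, with 2 lungs per group. The median differences of that list were 0.12 and 0.16. Of 10 alveolar type 1 markers 1 rose, Spock2, by 0.33 ± 0.06 (SE), with mean levels of 10.53 to 10.63 against 10.44 to 10.52. Over all genes 4.65% rose in the same test, so 1 or 2 calls in lists of this size say little about the cell type. In all, the mean level of 8 of 16 cell marker lists was higher on every stabilized than on every knockout array, that of 5 was lower and that of 3 overlapped. The 16.9% of single genes without overlap is no measure for means over several genes, and no such share was computed. Some of these gaps were very small. The lowest stabilized and highest knockout means were 10.02 and 10.01 for the general endothelial list and 10.53 and 10.52 for the alveolar type 1 list. A higher mean can rest on few genes. The smooth muscle and pericyte list, 1 of the 8, had mean levels of 8.09 to 8.22 against 7.94 to 8.07. Its median difference was only 0.04, with 9 markers above 0 and 7 below, and Rgs5 alone passed. The part of any of these cells in the higher Dll4 and Hey1 was not tested.

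**Figure D2:**
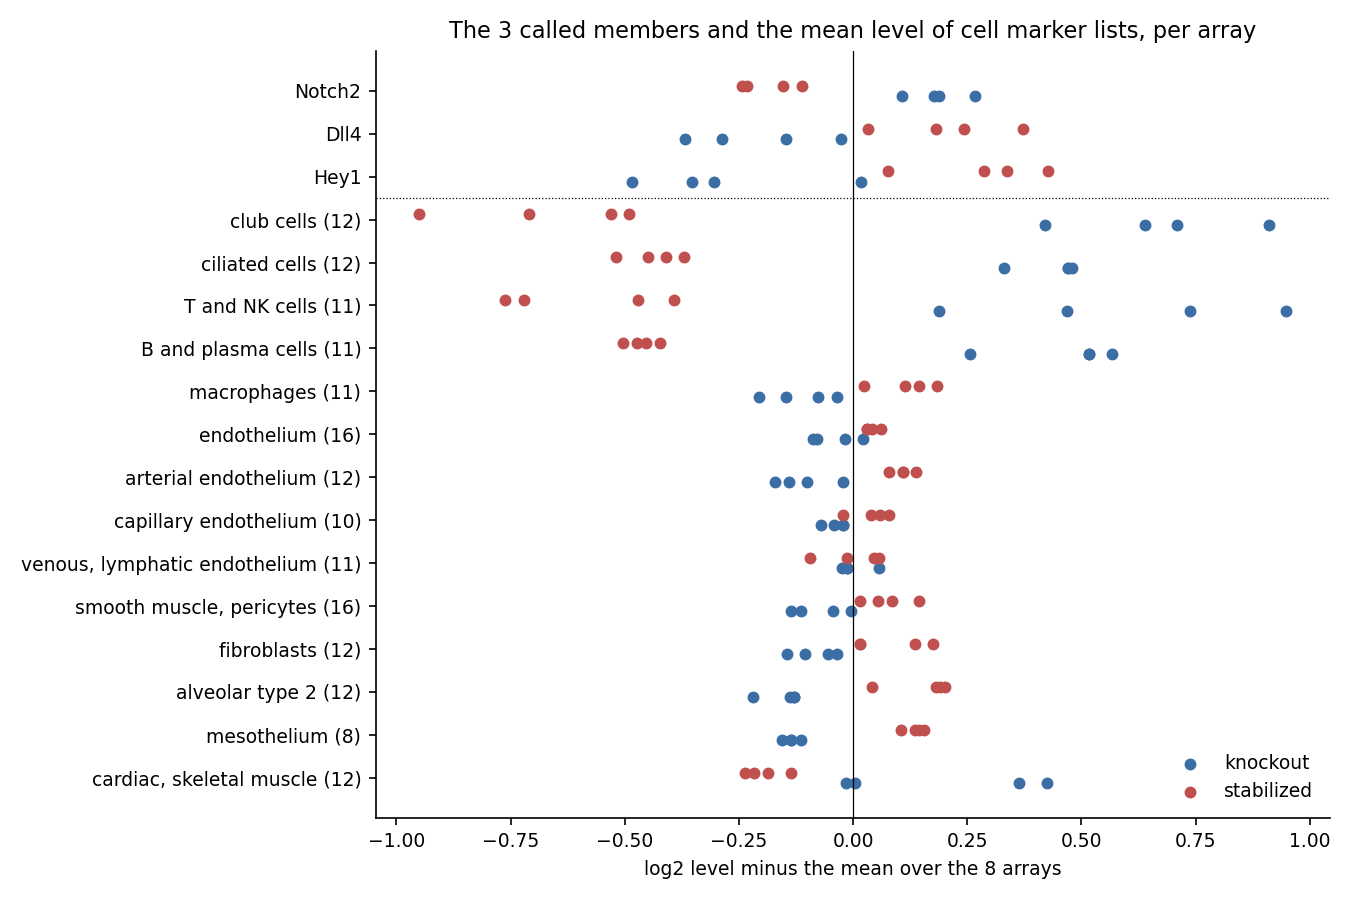
Log2 level on each array minus the mean over the 8 arrays (horizontal axis) for the 3 called genes and for the mean of each cell marker list (number of measured markers in parentheses), with knockout lungs in blue and stabilized lungs in red. Club, ciliated and lymphocyte lists lie on the same side as Notch2 and by larger distances, while the arterial list and those of macrophages, fibroblasts, alveolar type 2 cells and mesothelium, among others, lie on the side of Dll4 and Hey1 by smaller distances.

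Beyond the 10 genes, 82 of 85 other pathway genes in 6 lists were measured, of which 5 rose, 1 fell and 76 did not pass, again beside 9.62% over all genes. Their median difference was 0.01. Of 9 measured genes for cutting the receptor, the ADAM proteases Adam10 and Adam17 rose and 7 did not pass. Adam10, the main protease for ligand-induced cutting, was at 9.68, 9.84, 9.61 and 9.61 in stabilized and 9.42, 9.43, 9.38 and 9.35 in knockout lungs. The groups did not overlap, and the difference was 0.29 ± 0.07 (SE, limma adjusted p = 0.019). Omitting stabilized replicate 1 or knockout replicate 3 took the limma adjusted p to 0.052 and 0.054, past the threshold. Adam17, the protease that also frees tumour necrosis factor, differed by 0.30 ± 0.08 (SE, limma adjusted p = 0.036), and with single arrays omitted it passed only without stabilized replicate 3 or 4 or knockout replicate 2 (highest limma adjusted p = 0.11). It did not pass after repeated quantile normalization or in the fit on all probe sets either.

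Of 19 measured genes of the nuclear complex, only Rbpjl passed. Rbpjl encodes a relative of RBPJ that binds similar DNA but does not bind Notch, and is best known from the pancreas. It was at 8.23, 8.23, 8.14 and 8.15 in stabilized and 7.72, 7.66, 7.79 and 7.72 in knockout lungs, with a difference of 0.47 ± 0.06 (SE, limma adjusted p = 4e-04). Both groups were tight and far apart, and it had a smaller p than any of the 10 genes. Rbpj itself, chosen after its values were seen, had a mean of 8.10 in both groups (95% interval of the difference -0.16 to 0.16) by the brighter of its 2 probe sets. The other, dim at a mean of 4.81, differed by 0.28 ± 0.09 (SE, limma adjusted p over all probe sets = 0.13), and the mean of both differed by 0.14 (limma adjusted p = 0.27). The coactivator gene Kat2b differed by 0.27 ± 0.08 (SE, limma adjusted p = 0.0503).

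Of 16 genes of ubiquitination and endocytosis, Dtx1 fell and 15 did not pass. Dtx1 encodes a ubiquitin ligase that binds the receptor and is a Notch target in lymphocytes. It was at 5.78, 5.77, 6.02 and 5.98 in stabilized and 6.53, 6.27, 6.23 and 6.24 in knockout lungs, so that the groups did not overlap. The difference was -0.43 ± 0.09 (SE, limma adjusted p = 0.0079), in the same lungs in which the lymphocyte lists were lower. The part of lymphocytes in the lower Dtx1 was not tested. Neurl1a, a ligase that acts on ligands, differed by -0.18 ± 0.06 (SE, limma adjusted p = 0.076).

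Of 19 other Hes/Hey genes and targets, Id3 and Snai2 rose and 17 did not pass. Id3, an inhibitor of helix-loop-helix factors that BMP signals also induce, was at 8.12, 8.09, 8.07 and 7.98 in stabilized and 7.62, 7.73, 7.76 and 7.69 in knockout lungs, a difference of 0.37 ± 0.06 (SE, limma adjusted p = 0.0027). Snai2, a transcription factor of basal and mesenchymal cells, rose by 0.37 ± 0.08 (SE, limma adjusted p = 0.011). Nrarp, a feedback inhibitor and direct Notch target that was chosen after its values were seen, was at 7.82, 7.96, 7.65 and 7.75 against 7.14, 7.56, 7.51 and 7.66. Stabilized replicate 3 and knockout replicate 4 met in the middle, and the difference was 0.33 ± 0.11 (SE, limma adjusted p = 0.079). Heyl, the relative of Hey1 found in smooth muscle and also chosen after its values were seen, differed by -0.10 ± 0.08 (SE, limma adjusted p = 0.50).

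Of 10 other ligands 0 passed the limma test after adjustment, and 2 did at an unadjusted p under 0.05. These were the endothelial secreted protein Egfl7, at 0.24 ± 0.07 (SE, adjusted p = 0.055), and the microfibril protein Mfap2, at -0.21 ± 0.08 (SE, adjusted p = 0.10). Of 9 genes that add sugars to the receptor 0 passed after adjustment and 3 at an unadjusted p under 0.05. The smallest p values in that list were those of the xylosyltransferase Gxylt1, with a limma difference of 0.22 ± 0.06 (SE, adjusted p = 0.051), and the fringe gene Mfng, with 0.22 ± 0.08 (SE, adjusted p = 0.14).

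**Figure D3:**
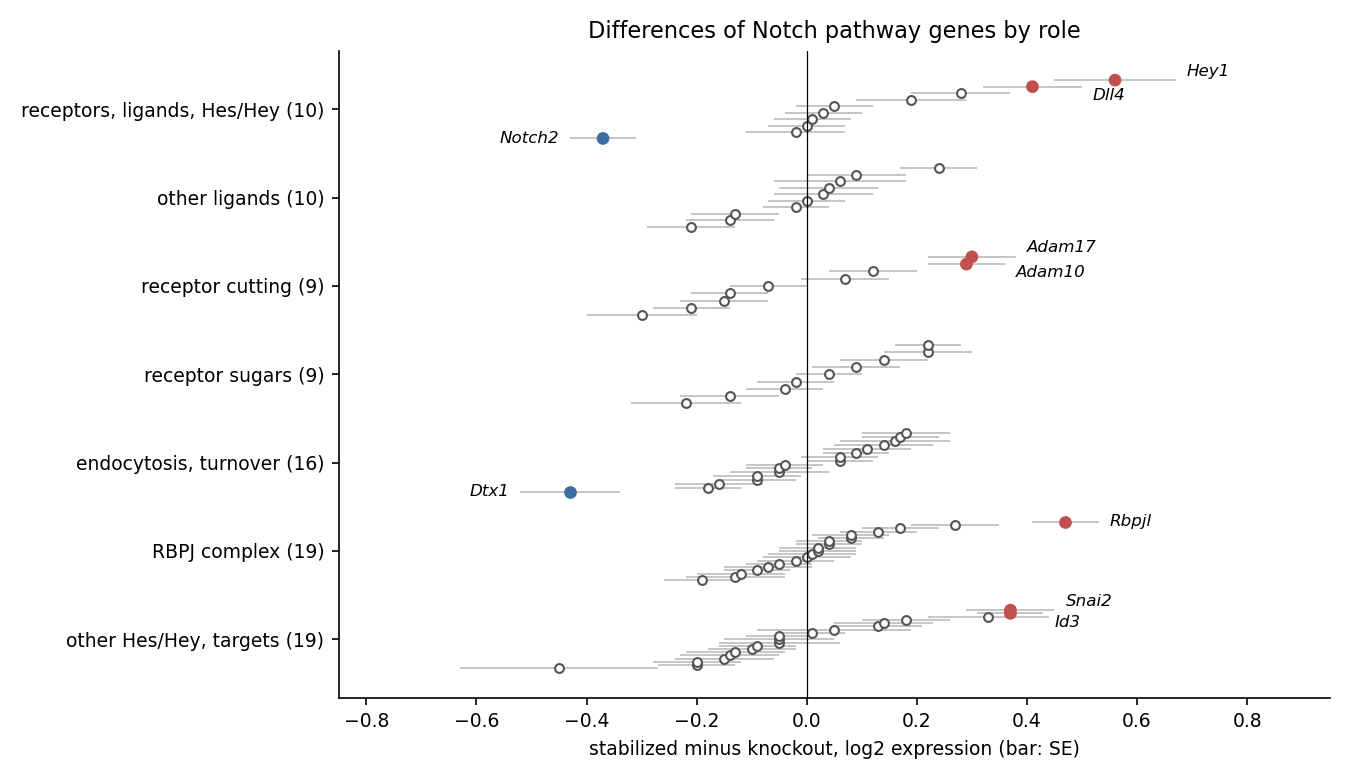
Stabilized minus knockout difference in log2 expression (horizontal axis, bars are SE) of the 10 genes and the 82 other pathway genes, in rows by role with the number measured. Filled points passed the test (red higher, blue lower in stabilized lungs) and are named. Most points lie within 0.2 of 0.

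The genes whose profiles over the 8 arrays lay closest to each called member were found by the root mean square difference after centring every gene on its own mean, among 18267 other named genes. For Notch2 they were Cherp (0.036 log2 units), Tmem229b (0.043) and Mef2d (0.050), which fell by 0.36, 0.34 and 0.30. For Dll4 they were Dnase2a (0.070), Tlr8 (0.074) and Vgll3 (0.074), with differences of 0.51, 0.30 and 0.34, of which that of Tlr8 did not pass (limma adjusted p = 0.058). For Hey1 they were Rasl12 (0.119), Ccr1 (0.12) and Fbp1 (0.12), which rose by 0.62, 0.52 and 0.56. Neighbours chosen in this way share the group difference of the member by selection. None of the 9 was a member of the pathway lists or one of the other called members. The 82 measured genes of those lists are a small part of the 18267 compared, so this says little.

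The calls of Notch2, Dll4 and Hey1 were kept in each of the 8 fits that left out 1 array. The limma adjusted p reached 0.012 for Notch2, 0.046 for Dll4 and 0.020 for Hey1. Their differences lay between -0.40 and -0.35, between 0.36 and 0.47 and between 0.49 and 0.66.

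**Figure D4:**
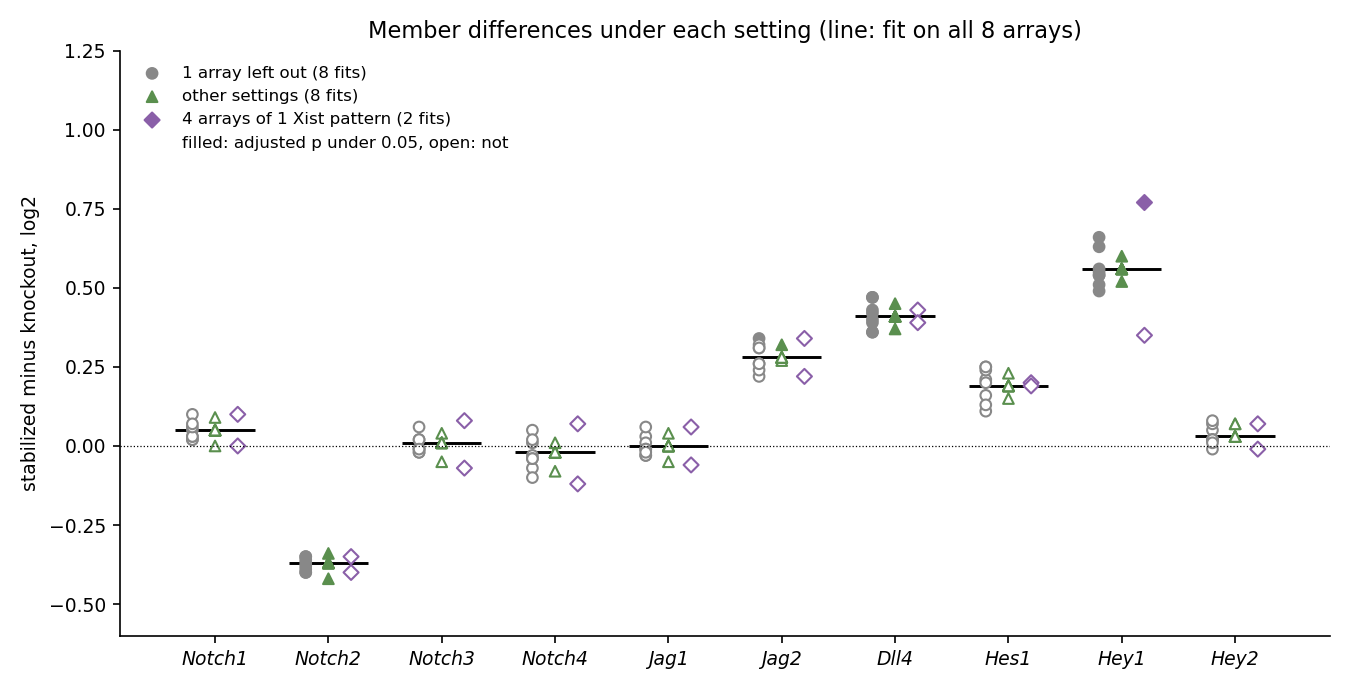
Stabilized minus knockout difference in log2 expression (vertical axis) of each gene in the fit on all 8 arrays (black line), with 1 array left out (circles), under 8 other settings (triangles) and in the 4 arrays of either Xist pattern (diamonds), filled where the adjusted p was under 0.05. Notch2, Dll4 and Hey1 stay on their side of 0 in all fits, and Notch3, Notch4, Jag1 and Hey2 lie on either side of it.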

How the data were processed

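Total RNA of 8 mouse lungs was measured on Affymetrix arrays, 4 per group. The authors deposited 1 log2 value per probe set and array, made with RMA and the affy package per the submitters' processing notes, with no versions given. RMA removes background, equalises array distributions and summarises probes, so it hides a change in total RNA and compresses fold changes of dim genes. The genome build of the probes is not given in the sources used here. Of 34760 probe sets, 21640 had 1 gene symbol in the platform annotation, 1321 several and 11799 none, and the first kind gave 19937 genes, each by its brightest probe set. Arrays have no read depth, and the number of arrays limits the precision.

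Stabilized minus knockout was fitted with limma 3.58.1 (R 4.3.3, lmFit and eBayes) on all 8 arrays with no covariate, and p-values were Benjamini-Hochberg adjusted over all genes. Errors of differences are moderated SE, and 95% intervals use 12.2 degrees of freedom. The labels call the arrays biological replicates. The fit was tested on simulated data. It called 76% of 100 genes changed by 0.5 log2 units and 99% of 100 changed by 1, and 9 unchanged genes. Smaller changes were not simulated, so a gene that did not pass may still differ. The 10 genes and the lists of other genes were chosen with earlier results of these data known. Named are all 10 genes, the called genes of each pathway list (with the 2 smallest p where fewer than 2 were called), up to 3 called genes of a cell marker list, and the 3 closest profiles. The other listed genes enter the counts and plots. Alternatives were a replicate block, each array left out, array centring, repeated quantile normalization, a filter at a mean of 5, averaged probe sets, all probe sets, a trended robust prior and Xist as a covariate. The split by Xist level was added after seeing the data.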

Additional observations from a re-analysis of the deposited data

Results flagged for a closer look

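In 2 of the 20 sets of 4 values (10 genes in 2 groups) 1 array lay far from the other three, where chance gives about 1 in 20. Notch3 was at 8.80 in stabilized replicate 2, against 9.03 to 9.07 in the other stabilized lungs. Hey2 was at 5.62 in knockout replicate 2, against 5.42 to 5.45 in the other knockout lungs. Neither gene passed the test in any fit run here.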

How the results depend on the processing

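The groups share replicate numbers, but same-numbered arrays did not deviate together (correlations of their deviations from the group means from -0.01 to 0.08), and stabilized replicate 1 correlated best with knockout replicate 3 (0.14). With a replicate block 1828 genes were called, 3 of them members. The fit on all probe sets called 1064 of the named genes, and fits that left out 1 array called 1216 to 1839 genes, 3 to 4 members and 4 to 7 of the other pathway genes. Centring each array on its median raised the called pathway genes from 6 to 10 (9 higher and 1 lower), and over all genes the share of calls that were higher from 48.4% to 64.4%. Without the 4 Xist-high arrays 354 genes, 1 member (Hey1) and 0 pathway genes were called by limma, and in those arrays alone 670 genes, 0 members and 1 pathway gene. With 2 lungs per group these counts rest on fewer samples. Members with differences near 0 changed sign, as Notch3 did after repeated quantile normalization (-0.05) and without the Xist-high arrays (-0.07). So did Notch4 with centring (0.01) and in the Xist-high arrays (0.07), Jag1 with centring (0.04) and without the Xist-high arrays (0.06), and Hey2 without them (-0.01). Rbpj changed sign after repeated quantile normalization (-0.04) and in the Xist-high arrays (-0.06). Efnb2 changed sign after repeated quantile normalization (-0.01) and without the Xist-high arrays (-0.08), and Sox17 came to 0.00 after repeated quantile normalization. None of these passed the test. With 1 array left out the difference of Notch3 lay from -0.02 to 0.06, that of Notch4 from -0.10 to 0.05, that of Jag1 from -0.03 to 0.06, that of Hey2 from -0.01 to 0.08, that of Rbpj from -0.05 to 0.04 and that of Efnb2 from -0.02 to 0.10. Notch2 and Hey1 kept their calls in all 8 other planned settings and Dll4 in 7.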
